A study of Oryza sativa with 2 samples.

Results

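The 5 genes described here are CESA4, CESA7 and CESA9, the cellulose synthases of the rice secondary wall, and the COBRA-like genes BC1L4 and BC1L9. They were chosen by symbol from the deposited expression table, which gave 5 rows of 76131. RNA was taken from the leaves of rice (Oryza sativa, cultivar Ilmi) at 2 weeks of age, grown without stress treatment. The library labelled PGD1:Roc10 came from transgenic plants whose promoter, called whole-body in the labels, drives Roc10, a homeodomain-leucine zipper transcription factor. The NT library came from nontransgenic plants of the same cultivar. Neither the number of plants nor the number of transgenic lines in a library is stated. The series title ties Roc10 to lignin synthesis and drought tolerance, so the comparison asks here whether the cellulose machinery of the same walls differed between overexpressing and nontransgenic leaves.

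Cellulose is made at the plasma membrane by rosette complexes of CESA proteins, each of which polymerises glucose from UDP-glucose into a glucan chain. Separate sets of CESA proteins serve the primary wall of growing cells and the thick secondary wall of xylem and fibre cells, and in rice CESA4, CESA7 and CESA9 form the secondary wall set: loss of any of them makes the culm brittle. COBRA-like proteins are wall proteins tethered to the membrane by a lipid anchor, and the rice member BRITTLE CULM1 is needed for cellulose assembly in mechanical tissue. BC1L4 is known in rice as a gene whose loss lowers cellulose content and plant height.

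With 1 library per group there is no replicate, so no test was made and the variation among plants is unknown. Mapped read pairs numbered 21866514 for PGD1:Roc10 and 27683296 for NT. Levels are the authors' FPKM, which divides the fragments of a transcript by its length, so that genes of different length can be set side by side. FPKM is also scaled for library size, in a way not given in the sources used here. A difference is the log2(FPKM + 1) value of PGD1:Roc10 less that of NT, a scale that shrinks differences between weak transcripts, and a fold is the plain ratio of both FPKM values. A row with a mean of at least 1 FPKM over both libraries is called measured, which held for 21875 rows. The transgene was not analysed here, since 0 of the rows used bear the name Roc10, and it gives no check of the label. Leaf transcripts were abundant in both libraries: the 14 measured rows for Rubisco small subunit, Rubisco activase and chlorophyll-binding proteins lay between 27.2 and 7840 FPKM in PGD1:Roc10 and between 33.0 and 8255 FPKM in NT, and 4 of the 14 were higher. The phloem sucrose transporter gene SUT1 had 95.6 FPKM in PGD1:Roc10 leaves and 105.6 FPKM in NT leaves, and none of 6 root marker rows was measured. Of 37 seed protein rows 4 were measured. Both rows named for tracheary (xylem) markers, a bifunctional nuclease and the xylem cysteine proteinase OS05G0108600, stayed below 1 FPKM, with a sum of 0.546 FPKM in PGD1:Roc10 leaves and 0.555 FPKM in NT leaves. In bulk leaf RNA, a different number of cells that make secondary wall and a different amount of RNA per such cell cannot be told apart.

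In PGD1:Roc10 leaves, 4 of the 5 genes had higher values than in NT leaves, and CESA7 had a lower one. BC1L9 differed most, at 3.11-fold, and the other 3 genes that were higher lay between 1.23-fold and 1.47-fold. All 5 directions held under each of 4 scalings of the libraries, while a change of pseudocount alone cannot turn a direction. The level filter was passed by 4 of the 5: CESA9, with a mean of 0.918 FPKM, fell just below it. Of those 4 genes 3 were higher and 1 was lower, where 48.9% of all measured rows were higher and 51.1% lower. A gene below 1 FPKM in NT can pass the filter only by being higher in PGD1:Roc10. BC1L9, at 0.649 FPKM in NT, is such a gene, so the filter fixed its direction in this count. The median difference of the 4 genes was 0.33 on the log2 scale against -0.01 over all measured rows. It was 0.24 without BC1L9 and 0.26 with no level filter. With both libraries scaled to the same total FPKM it was 0.14, against -0.20 over all measured rows. On the log2(FPKM + 1) scale none of the 4 genes reached 2-fold in either direction, as 2.29% of measured rows did upward and 1.29% downward. In the authors' deposited table none of the 5 was called significant and q was 0.999 for each of them, where 0.188% of all rows were called.

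Among the secondary wall cellulose synthases, CESA4 (chromosome 1, 31422945 to 31428670 on IRGSP-1.0) had a level of 4.46 FPKM in PGD1:Roc10, against 3.62 FPKM in NT. This is 1.23-fold higher, a difference of 0.24 on the log2(FPKM + 1) scale. It is the 1 gene of the 5 whose locus holds no other row of the table. CESA7 (chromosome 10, 17262013 to 17266561) had 2.96 FPKM in PGD1:Roc10 leaves and 3.35 FPKM in NT leaves, a difference of -0.14, so the value in NT was 1.13-fold that in PGD1:Roc10. The other row at the CESA7 locus, the hypothetical protein row OS10G0467850, was at 0.273 FPKM in PGD1:Roc10 leaves and 0.0242 FPKM in NT leaves. CESA9 (chromosome 9, 15281319 to 15285893) had 1.09 FPKM in PGD1:Roc10 leaves and 0.744 FPKM in NT leaves, which is 1.47-fold higher and a difference of 0.26.

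The proteins of these genes work together in 1 complex, so their levels were also set against each other within each library. CESA4 stood first, CESA7 next and CESA9 last in both libraries, but the spacing differed. The level of CESA4 was 1.51 times that of CESA7 in PGD1:Roc10 and 1.08 times in NT. CESA7 was 2.71 times as abundant as CESA9 in PGD1:Roc10 and 4.51 times in NT. As a share of the summed FPKM of the 3 genes, CESA4 took 52.4% in PGD1:Roc10 and 46.9% in NT. CESA7 took 34.8% in PGD1:Roc10 and 43.5% in NT, whereas CESA9 took 12.8% in PGD1:Roc10 and 9.65% in NT. Their sum differed little, at 8.50 FPKM in PGD1:Roc10 leaves and 7.71 FPKM in NT leaves, a ratio of 1.10. These are low levels for leaf transcripts: the median measured row stood at 11.5 FPKM in PGD1:Roc10 leaves and 11.4 FPKM in NT leaves. CESA4 lay above 26.4% of measured rows in PGD1:Roc10 and above 22.98% in NT, and CESA7 above 18.3% in PGD1:Roc10 and 21.4% in NT.

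**Figure D1:**
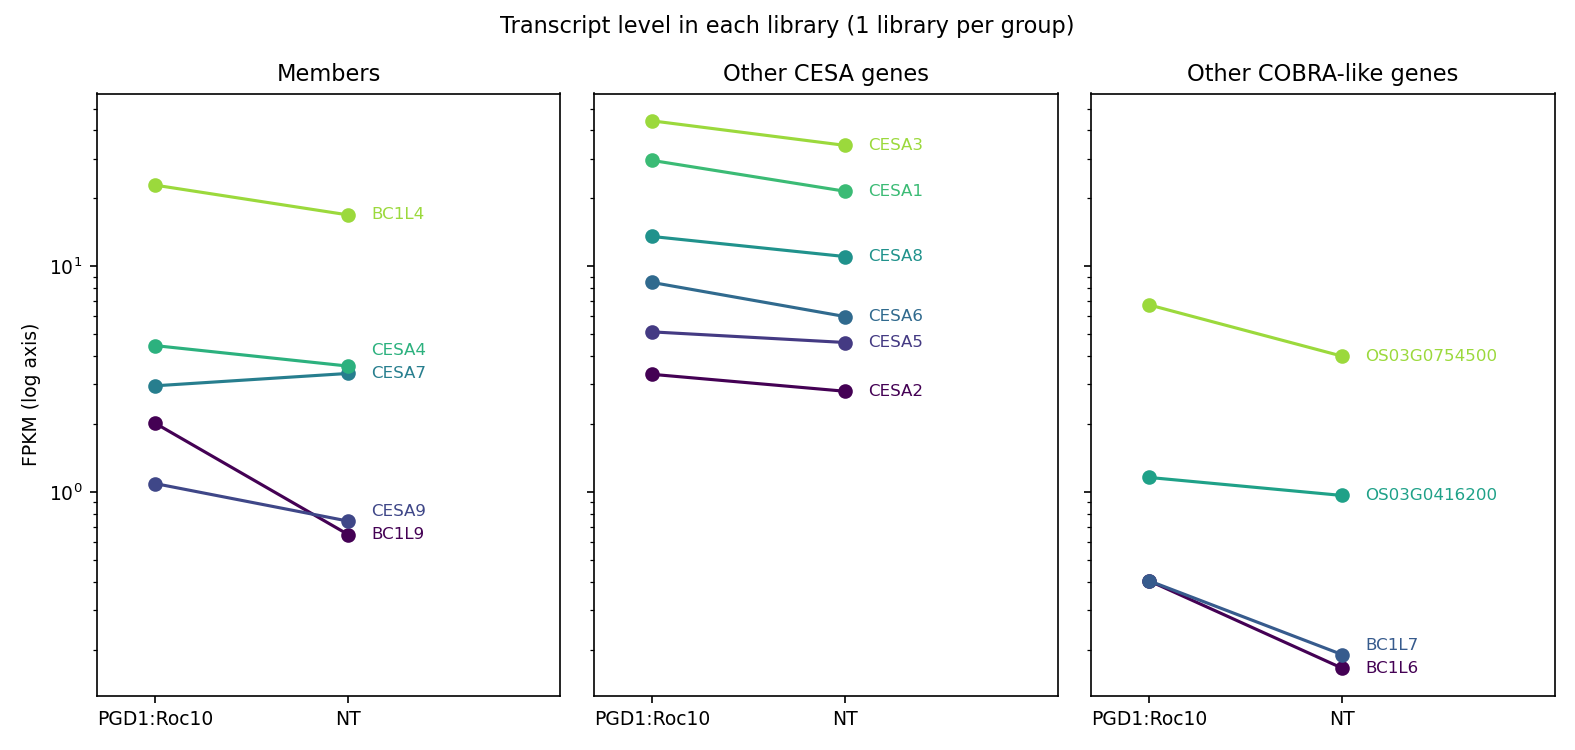
FPKM (log axis) of the 5 members, the 6 other CESA genes and the 4 other COBRA-like genes with values above 0, in the PGD1:Roc10 library (left point) and the NT library (right point), with a line joining the values of each gene. CESA7 is the single line that is lower in PGD1:Roc10, at 2.96 FPKM against 3.35 FPKM in NT, and the line of BC1L9 is the steepest of the members.

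BC1L4 (chromosome 5, 18720445 to 18724814) was the most abundant of the 5 genes in both libraries, at 22.9 FPKM in PGD1:Roc10 leaves and 16.9 FPKM in NT leaves. It was 1.35-fold higher, a difference of 0.42 on the log2(FPKM + 1) scale, and was the 1 gene of the 5 above the median measured row in either library. The other row at its locus, the zinc finger gene OS05G0386700, had 0.261 FPKM in PGD1:Roc10 leaves and 0.274 FPKM in NT leaves. BC1L9 (chromosome 10, 18976008 to 18979062) had 2.02 FPKM in PGD1:Roc10 leaves and 0.649 FPKM in NT leaves. The 3.11-fold ratio is a difference of 0.87 on the log2(FPKM + 1) scale, and with a pseudocount of 0.5 or 0.1 in place of 1 it would be 1.13 or 1.5004 and so past 2-fold. Plain ratios of 3 or more are commoner among weak transcripts: 1.52% of all measured rows had one, and 4.16% of the 2426 measured rows with a mean under 2 FPKM, to which BC1L9 belongs. The authors' deposited table gave BC1L9 p = 0.0604 before adjustment, from Cuffdiff on these libraries alone, and BC1L4 p = 0.185.

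In PGD1:Roc10 the order of the levels of the 5 genes ran BC1L4, CESA4, CESA7, BC1L9 and CESA9, and in NT it ran BC1L4, CESA4, CESA7, CESA9 and BC1L9. BC1L9 and CESA9 thus changed places at the low end. Neighbours in these orders cannot be compared with a replicate spread. BC1L4 was 11.3 times as abundant as BC1L9 in PGD1:Roc10 and 26.0 times in NT.

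The wider COBRA-like family went the same way as BC1L4 and BC1L9. Besides these, the table holds 6 rows for COBRA-like genes, of which 2 were measured. The measured COBRA-like 3-like gene OS03G0754500 (chromosome 3, 31125146 to 31126654) had 6.74 FPKM in PGD1:Roc10 leaves and 4.00 FPKM in NT leaves, 1.69-fold higher. The measured BRITTLE CULM1 gene OS03G0416200 (chromosome 3, 17260406 to 17266217) had 1.16 FPKM in PGD1:Roc10 leaves and 0.966 FPKM in NT leaves, 1.20-fold higher. BC1L6 had 0.404 FPKM in PGD1:Roc10 leaves and 0.166 FPKM in NT leaves, and its neighbour on chromosome 7, BC1L7, had 0.404 FPKM in PGD1:Roc10 leaves and 0.191 FPKM in NT leaves. OS03G0416300 and OS06G0685100 were listed at 0 in both libraries, as was BC1LP1, a symbol that the list missed and that was added after the values were seen. All 6 of the 8 listed family rows with values above 0 were therefore higher in PGD1:Roc10, and rescaling the libraries to an equal FPKM total turned none of them. Among all rows above 0 with a mean under 1 FPKM, such as BC1L6 and BC1L7, 54.2% were higher. Of all measured rows 48.9% were higher as deposited and 21.3% at the equal total. The family summed to 33.6 FPKM in PGD1:Roc10 leaves and 22.9 FPKM in NT leaves, a ratio of 1.47, and BC1L4 supplied 68.1% of that sum in PGD1:Roc10 leaves and 73.9% in NT leaves.

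The 6 other CESA genes, most of which belong to the primary wall set, were all measured. All 6 were higher in PGD1:Roc10, by 1.11-fold to 1.42-fold, where 48.9% of all measured rows were higher. With both libraries scaled to the same total FPKM, CESA5 turned lower and the other 5 stayed higher, where 21.3% of measured rows were higher. CESA3, the most abundant, had 44.1 FPKM in PGD1:Roc10 leaves and 34.3 FPKM in NT leaves. CESA1 had 29.4 FPKM in PGD1:Roc10 leaves and 21.5 FPKM in NT leaves, and CESA8 had 13.6 FPKM in PGD1:Roc10 leaves and 11.0 FPKM in NT leaves. These 3 genes supplied most of the CESA transcripts of the leaf, so the family was dominated by its primary wall members in either library. The row OS06G0601600 (chromosome 6, 23777892 to 23780396), annotated only as holding a cellulose synthase domain and named after its values were seen, was lower, with 0.8003 FPKM in PGD1:Roc10 leaves against 1.07 FPKM in NT leaves and a mean below the level filter.

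CESA6 showed the highest ratio, with 8.48 FPKM in PGD1:Roc10 leaves and 5.99 FPKM in NT leaves. CESA5 had 5.12 FPKM in PGD1:Roc10 leaves and 4.60 FPKM in NT leaves, and CESA2 had 3.32 FPKM in PGD1:Roc10 leaves and 2.80 FPKM in NT leaves. The median difference of the 6 genes was 0.31 on the log2 scale, against -0.01 for all measured rows. None was 1.5-fold higher on that scale, as 5.13% of measured rows were. Their summed level was 104.0 FPKM in PGD1:Roc10 leaves and 80.2 FPKM in NT leaves, a ratio of 1.30. The sum of these 6 genes was 12.2 times that of CESA4, CESA7 and CESA9 in PGD1:Roc10 and 10.4 times in NT. CESA4 thus made up 3.96% of all CESA transcripts in PGD1:Roc10 and 4.11% in NT, and CESA7 2.63% in PGD1:Roc10 and 3.81% in NT.

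A difference in how libraries were scaled bears on all of these values. It changes every plain ratio by the same factor but moves weak genes less on the log2(FPKM + 1) scale. The 2-fold differences over the whole table were 502 higher and 282 lower measured rows. With both libraries scaled to the same total FPKM these became 419 and 400, the median difference of all measured rows moved to -0.20, and 21.3% of rows were higher in place of 48.9%. Relative to that shifted median, CESA4 lay 0.27 above it, BC1L4 0.41 above it and BC1L9 0.96 above it on the log2 scale. CESA7, at -0.30, lay -0.10 from it. With this scaling BC1L4 moved from 0.42 to 0.21 but BC1L9 only from 0.87 to 0.76. The pseudocount thus widens the distance of a weak gene such as BC1L9 from the shifted median. Summed FPKM over all rows was 1213535 in PGD1:Roc10 and 1047261 in NT. Without the rows of short RNAs it was 837651 in PGD1:Roc10 and 857328 in NT, so the larger total of PGD1:Roc10 was not seen without them. With both libraries scaled to the same total without short RNAs, 54.5% of measured rows were higher, and their median was 0.02.

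**Figure D2:**
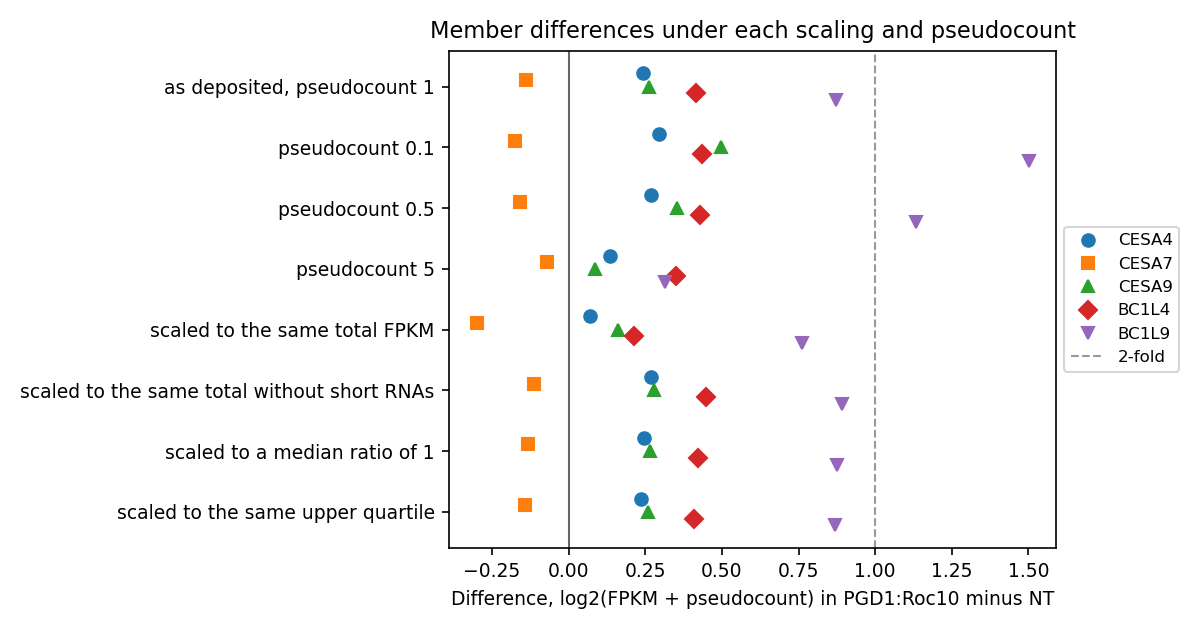
Difference of each member in log2(FPKM + pseudocount), PGD1:Roc10 minus NT (horizontal axis), with the values as deposited and under each other pseudocount or scaling of the libraries (rows). CESA7 lies below 0 and the other 4 genes above 0 in every row, and BC1L9 passes the dashed 2-fold line with a pseudocount of 0.5 or 0.1.

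Of the 5 genes 2, BC1L9 and CESA9, share their locus with another measured row of the table, and each of these rows was higher in PGD1:Roc10 like its gene. BC1L9 shares its locus with the hypothetical protein row OS10G0497750, which had 1.71 FPKM in PGD1:Roc10 leaves and 0.528 FPKM in NT leaves, a 3.24-fold ratio next to the 3.11-fold ratio of BC1L9. CESA9 shares its locus with the hypothetical protein row OS09G0422550, at 2.21 FPKM in PGD1:Roc10 leaves and 1.24 FPKM in NT leaves. In both libraries that row was more abundant than CESA9 itself.

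Relatives of the 5 genes have such rows too. At the BC1L6 locus the non-protein-coding row OS07G0604350 had 1.70 FPKM in PGD1:Roc10 leaves and 0.573 FPKM in NT leaves, and at the CESA8 locus the hypothetical row OS07G0208533 had 28.2 FPKM in PGD1:Roc10 leaves and 24.7 FPKM in NT leaves, more than CESA8. Over the loci of all CESA and COBRA-like genes, 8 measured rows of hypothetical or non-coding transcripts lay at 6 loci. All 8 were higher in PGD1:Roc10, by 1.14-fold to 3.24-fold, where 48.9% of measured rows were higher. A row below 1 FPKM in NT can pass the level filter only by being higher in PGD1:Roc10. This holds for OS10G0497750, OS07G0604350 and OS03G0416250, at 0.528, 0.573 and 0.761 FPKM in NT, so the filter fixed their direction. With an equal FPKM total in each library, 6 of the 8 stayed higher and 2, at the CESA2 and CESA8 loci, were lower. On that scale 21.3% of all measured rows were higher. The libraries were strand-specific, but the strand setting of the counting is not given in the sources used here, so reads of a gene and of another row at its locus may have been divided between them. The values of BC1L9 and CESA9 are the less certain for this, while CESA4 is free of it and the partner rows of CESA7 and BC1L4 lay below 1 FPKM.

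**Figure D3:**
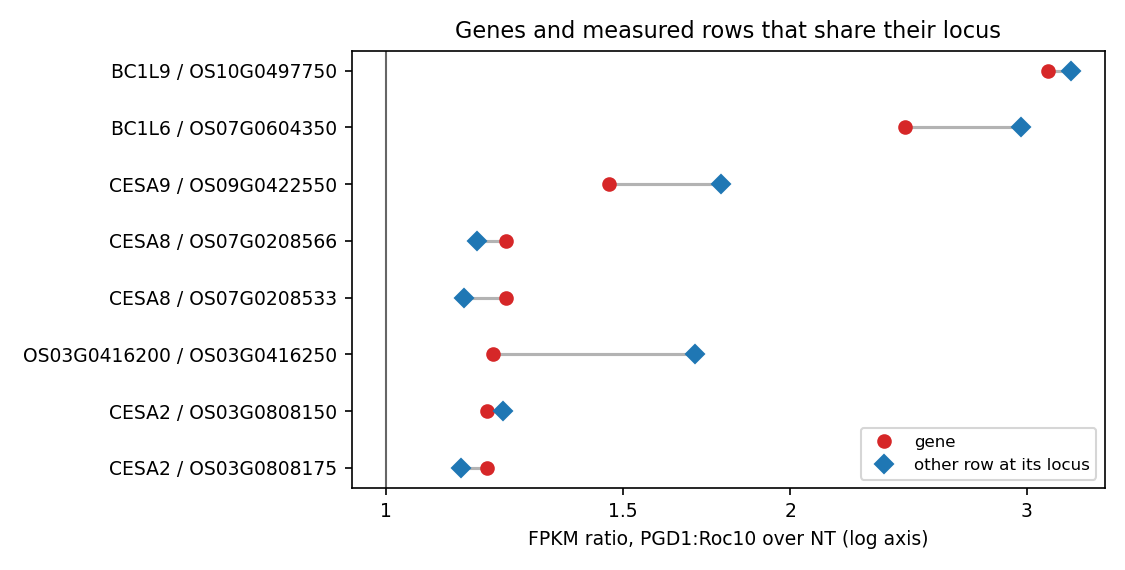
Ratio of FPKM in PGD1:Roc10 over NT (log axis) for 6 CESA and COBRA-like genes (circles) and for the measured rows that share their locus (diamonds), joined by a line for each pair. BC1L9 at 3.11 and its partner row at 3.24 lie side by side at the high end, and with the values as deposited every point lies above 1.

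The cellulose synthase-like (CSL) genes, relatives of CESA that make other wall glucans and mannans, went in both directions. Of 25 CSL rows 13 were measured, and 9 were higher and 4 lower, with a median difference of 0.20, where 48.9% of measured rows were higher. With an equal FPKM total in each library 7 of the 13 were higher, and the median was 0.013. On that scale 21.3% of all measured rows were higher, and their median was -0.20. The 1 that was 2-fold higher, the CSLA1-like gene OS06G0230100, had 3.97 FPKM in PGD1:Roc10 leaves and 0.663 FPKM in NT leaves. CSLH1, whose barley relative makes mixed-linkage glucan, had 80.7 FPKM in PGD1:Roc10 leaves and 44.0 FPKM in NT leaves, and CSLA7, of the mannan synthase clade, had 2.02 FPKM in PGD1:Roc10 leaves and 3.22 FPKM in NT leaves. CSLF6, the main mixed-linkage glucan synthase of grasses, had 5.33 FPKM in PGD1:Roc10 leaves and 4.33 FPKM in NT leaves.

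Genes that supply or trim the growing glucan chain gave 4 higher and 3 lower of 7 measured, none of them 2-fold, a share near the 48.9% of all measured rows. With an equal FPKM total in each library 1 of the 7 was higher, where 21.3% of all measured rows were. Sucrose synthases, which release UDP-glucose for cellulose, had 1 of 4 higher: SUS4 had 9.62 FPKM in PGD1:Roc10 leaves and 12.7 FPKM in NT leaves, and SUS6 had 0.851 FPKM in PGD1:Roc10 leaves and 1.32 FPKM in NT leaves. The endoglucanase gene GLU2 had 34.3 FPKM in PGD1:Roc10 leaves and 28.8 FPKM in NT leaves, and the other measured endoglucanases, GLU11 and GLU1, were at 8.12 and 9.20 FPKM in PGD1:Roc10 leaves and at 7.09 and 9.15 FPKM in NT leaves. The 4 further endoglucanases with a GLU symbol and values above 0 but below the level filter were all lower. So was OS04G0497200, named for the endoglucanase KORRIGAN, at 0.504 FPKM in PGD1:Roc10 leaves and 0.579 FPKM in NT leaves. GLU10, among the 4, was nearly level, at 0.620 FPKM in PGD1:Roc10 leaves and 0.628 FPKM in NT leaves. Of all rows above 0 with a mean under 1 FPKM, 54.2% were higher. The chitinase-like gene OS09G0494200, named after its values were seen because the list missed its description, had 11.7 FPKM in PGD1:Roc10 leaves and 8.47 FPKM in NT leaves.

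Xylan is the main partner of cellulose in grass secondary walls, and genes of its candidate enzyme types were found in both directions. Of 28 measured genes of the glycosyltransferase family 43, exostosin, xylosyltransferase and DUF579 types, 13 were higher and 15 lower, with a median of -0.05 and none 2-fold. The 46.4% that were higher lie near the 48.9% of all measured rows. With an equal FPKM total in each library 5 of the 28 were higher, with a median of -0.22. On that scale 21.3% of all measured rows were higher, with a median of -0.20. The list also took in enzymes of other polymers, such as the xyloglucan xylosyltransferase-like genes OS02G0529600 and OS03G0305950: without the genes named only as xylosyltransferases, 9 were higher and 13 lower of 22. The exostosin-like genes had 3 of 12 higher, among them OS10G0553600 at 8.25 FPKM in PGD1:Roc10 leaves and 13.7 FPKM in NT leaves and OS10G0459300 at 1.45 FPKM in PGD1:Roc10 leaves and 2.49 FPKM in NT leaves, both lower. Family 43 had 5 of 7 higher, and the xylosyltransferase-like OS01G0201100 had 9.50 FPKM in PGD1:Roc10 leaves and 6.53 FPKM in NT leaves. Fasciclin-like genes, which encode arabinogalactan proteins of the wall, gave 1 higher and 3 lower of 4 measured. The lowest ratio among them was that of OS05G0459700, at 0.641 FPKM in PGD1:Roc10 leaves and 1.38 FPKM in NT leaves. OS03G0128000 followed with 7.45 FPKM in PGD1:Roc10 leaves and 10.03 FPKM in NT leaves, and OS01G0159200 with 1.04 FPKM in PGD1:Roc10 leaves and 1.33 FPKM in NT leaves. The patterns for secondary wall NAC and MYB regulators matched 0 rows, so these were not analysed here.

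**Figure D4:**
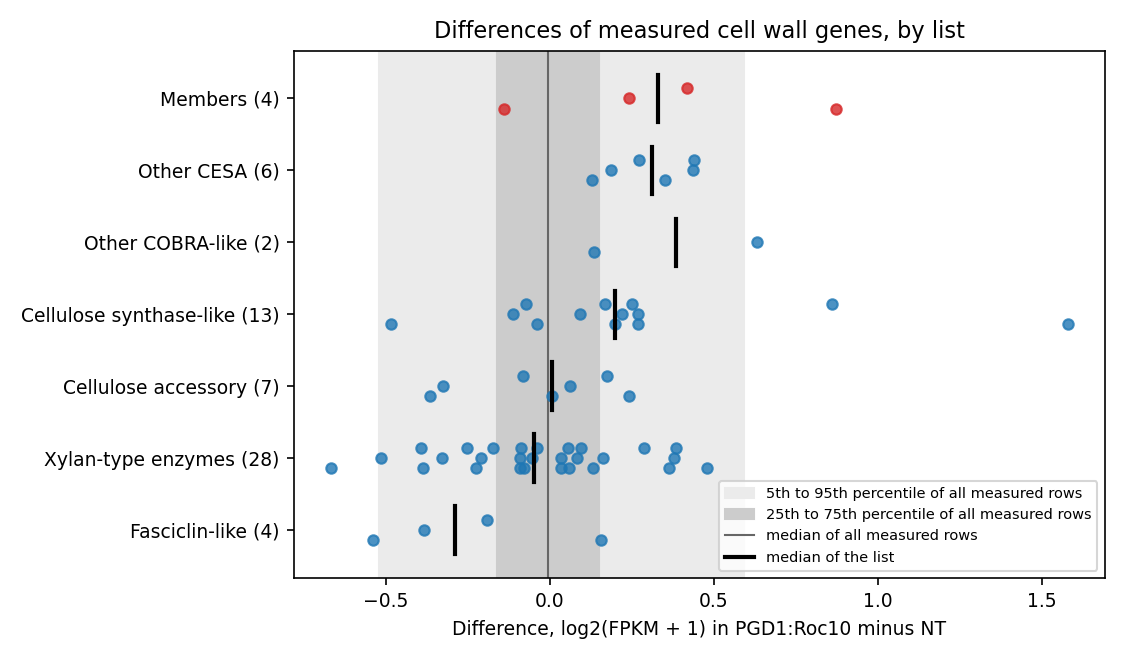
Differences in log2(FPKM + 1), PGD1:Roc10 minus NT, of the measured genes of each list (points, with the number of genes in brackets; black bars, list medians) over the spread of all measured rows (grey bands and line). The medians of the members and the other CESA genes, at 0.33 and 0.31, lie right of the darker band. So do those of the other COBRA-like genes, at 0.38, and the CSL genes, at 0.20. The median of the fasciclin-like genes, at -0.29, lies left of the band, and the xylan-type genes scatter on either side of 0.

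The search for genes close in level to each member took in 21319 coding rows with a symbol or informative description. By distance between the log2(FPKM + 1) values over 2 libraries, the closest genes had no wall annotation. For CESA4 these were a thioredoxin domain gene (OS11G0604700) at 4.45 FPKM in PGD1:Roc10 leaves and 3.64 FPKM in NT leaves and the RING finger gene OS02G0692000. For CESA7 they were the exocyst subunit gene OS09G0347300, at 2.97 FPKM in PGD1:Roc10 leaves and 3.36 FPKM in NT leaves, and a transposon-like gene (OS03G0349200). For CESA9 they were the Dof zinc finger gene OS04G0678400 and EXO1. For BC1L4 they were the NF-YA-like gene OS07G0608200 and OS09G0526800. For BC1L9 they were the lipoxygenase-like OS05G0355800, at 2.02 FPKM in PGD1:Roc10 leaves and 0.661 FPKM in NT leaves, and the thioredoxin-related OS12G0566600. With 2 libraries this likeness says only that levels are close.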

How the data were processed

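Strand-specific RNA-seq of 2 libraries, 1 per group, was deposited as FPKM values that the authors made with TopHat 2.0.12, Cufflinks 2.2.1 and Cuffdiff 2.2.1 on IRGSP-1.0 with Ensembl Genomes release 23, per the file headers. The p-value and q-value columns in the deposited table are Cuffdiff's, from 1 library per group. The files list FPKM but no fragment counts of single genes, whose depth is therefore unknown. The other numbers used, such as mapped pairs, come from the deposited summary sheet. The library normalization is not given in the sources used here.

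From these, differences on log2(FPKM + 1), plain ratios, counts and medians were computed with Python 3.11.15, NumPy 2.4.6 and pandas 2.3.3. The counting was checked on the NT values with known changes planted in 200 strong rows, which does not cover weak rows. Groups and columns were assigned through the library codes in the labels. Named were every member, every other CESA and COBRA-like row, the up to 3 most different measured genes of each further list, and the 2 nearest annotated coding genes per member. CSLF6, OS09G0494200, OS06G0601600, BC1LP1, the lesser endoglucanases, 2 xyloglucan-type genes and the rows sharing a locus were also named, chosen after their values were seen. Members and lists were chosen with earlier results of these data known. Coordinates are the deposited loci. Alternatives were 3 pseudocounts, 4 scalings, 3 level filters and 2 other folds.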

Additional observations from a re-analysis of the deposited data

How the results depend on the processing

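No paired analysis was possible because each group holds 1 library. The values of the Cuffdiff output sheet were the same as those used, and no direction of the 5 members turned under any setting. With a pseudocount of 0.1 the differences of CESA4, CESA7, CESA9, BC1L4 and BC1L9 were 0.29, -0.18, 0.50, 0.44 and 1.5004, with 0.5 they were 0.27, -0.16, 0.36, 0.43 and 1.13, and with 5 they were 0.13, -0.070, 0.085, 0.35 and 0.31. With the same total FPKM they were 0.071, -0.30, 0.16, 0.21 and 0.76, and with the same total without short RNAs 0.27, -0.11, 0.28, 0.45 and 0.89. Scaled to a median ratio of 1, CESA4, CESA7 and BC1L9 were at 0.25, -0.13 and 0.88, and at the same upper quartile BC1L4 was at 0.41.

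The median of the other CESA genes was 0.33, 0.32 and 0.25 with the pseudocounts 0.1, 0.5 and 5, and 0.11, 0.34 and 0.32 with the same total, the same total without short RNAs and a median ratio of 1. It was 0.39 above 5 FPKM and without genes that share their locus with a measured row, and 0.27 without CESA6. The median of the measured members was 0.36, 0.35 and 0.22 with the pseudocounts 0.1, 0.5 and 5, and 0.14 with the same total. It was 0.24 without BC1L9 and 0.26 without a filter. Above 5 FPKM 1 member and 1 other COBRA-like gene were left, each higher, and without a filter 4 other COBRA-like genes were higher.

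Over all rows, 2-fold higher and lower counts were 214 and 100 with a pseudocount of 5, 249 and 138 above 5 FPKM, 90 and 74 at a mean under 2 FPKM, 1122 and 856 at 1.5-fold and 266 and 130 at 3-fold, and 483 were lower with a pseudocount of 0.1. The median of CESA4 and CESA7 turned to -0.11 with the same total and to -0.14 without CESA4. That of the accessory genes turned to -0.18 with the same total, -0.024 without a filter and -0.038 at 0.5 FPKM, and that of all rows to 0.024, 0.00021 and 0.0018 with the same total without short RNAs, a median ratio of 1 and no filter. Of the list counts and medians not answering a comparison, 252 stayed (counts within 1.5 times, medians to 2 decimals), 84 moved and these 8 turned sign. Except for the smaller lists that a filter or omission makes, the cause was not tested. One library per group and weak levels, under 1 FPKM for CESA9 and BC1L9 in NT, limit these values.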
